A study of Mus musculus with 36 samples.

Results

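NRF2 is the transcription factor encoded by Nfe2l2, and the genes described here are Nfe2l2, its repressor Keap1 and 8 well-known targets, namely Nqo1, Gclc, Gclm, Hmox1, Txnrd1, Srxn1, Aox1 and Ces1g. Members were all probe sets of the array whose only gene symbol is 1 of these 10 names. The rule found 13 of the 45141 probe sets, for 9 of the 10 genes: 4 for Srxn1, 2 for Nfe2l2 and 1 for each of the other 7, and Keap1 was not analysed here. Kidney RNA of 36 male C57BL/6 mice, 10 to 12 weeks old, was hybridised to Affymetrix HT MG-430 PM arrays, and each mouse has its own array.

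The mice fall into 8 groups. In the cohort of the fasting experiment, 4 mice were fasted for 3 days and 5 control mice ate the standard chow SDS without limit. In the other cohort, 5 mice received 30% less SDS chow for 2 weeks (30%DR) and 3 SDS mice were their controls. The remaining mice ate purified diets for 3 days: a complete Control diet (5 mice), a diet without protein (protein-free, 5 mice), without carbohydrate (CHO-free, 5 mice) or without fat (fat-free, 4 mice). Carbohydrate took the place of the protein in the protein-free diet, and protein took the place of the carbohydrate in the CHO-free diet. By the composition given in the paper, the fat-free diet held more protein than the Control diet. None of these diets therefore changed 1 nutrient alone. The 30%DR mice were fed once a day at a fixed hour while their controls ate freely, so the amount of food and its timing cannot be told apart. In the paper, mice on the 3-day protein-free diet lost body weight and took in less energy, though the difference in energy was not significant. Nutrient and amount of food therefore cannot be told apart on that diet. The arrays of the fasting cohort were normalized apart from the 27 others, so levels are set side by side only within a cohort, and the protein-free, CHO-free and fat-free comparisons share the same 5 Control mice.

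In unstressed cells the adaptor KEAP1 binds NRF2 and hands it to a ubiquitin ligase, so that the protein is degraded as fast as it is made. Oxidants and electrophiles modify KEAP1, NRF2 accumulates in the nucleus, pairs with a small MAF protein and binds antioxidant response elements near its target genes. The targets make glutathione, recycle thioredoxin, degrade haem and detoxify quinones, aldehydes and drugs. Since NRF2 activity is set mainly by protein stability, the mRNA of Nfe2l2 and the mRNAs of its targets are separate readouts. In the kidney, the pathway is studied chiefly for its part in resistance to ischaemia and to toxins.

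The core of the antioxidant response element is TGACNNNGC. It was searched on both strands of RefSeq promoter windows (GRCm38.p6, from 250 bases before to 50 bases after each start), where 12.4% of 32851 windows hold it. The table held 10 windows of 8 members, those of Nfe2l2, Keap1, Nqo1, Gclm, Txnrd1, Srxn1, Aox1 and Ces1g, and none for Gclc and Hmox1. The core was found in 4 of the 10 windows and in 4 genes. These stretches are shown because they are the places near a member's start where these letters occur, with the core in capitals and all read 5′ to 3′ along the gene.
Nfe2l2: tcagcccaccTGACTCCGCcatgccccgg
Srxn1: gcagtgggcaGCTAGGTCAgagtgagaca
Gclm: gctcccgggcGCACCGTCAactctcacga
Txnrd1: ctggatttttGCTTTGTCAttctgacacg
The Nfe2l2 stretch lies at chr2:75704885-75704913 on the minus strand, and its core begins at position -240 from the start on the same strand as the gene. The other 3 genes lie on the plus strand and carry the core on the opposite strand, shown as its reverse complement in capitals. The Srxn1 stretch is chr2:152105542-152105570 with the core at position 29, that of Gclm is chr3:122245413-122245441 with the core at position -134, and that of Txnrd1 is chr10:82859104-82859132 with the core at position -92, in 1 of its 3 windows. A match of 9 letters is a description of the sequence and not a measured binding site, and nothing was read from the windows without a match.

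The values below are log2 values from RMA, the authors' normalization, in which a difference of 1 is a 2-fold change. A differentially expressed probe set (DEPS) passed a false discovery rate of 5% in limma, adjusted over all 45141 probe sets, and changed at least 1.5-fold. A member "rose" or "fell" only where its probe set was a DEPS. Errors are SDs over mice for group means and standard errors (SE) for log2 fold changes.

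After 3-day fasting, 4 of the 13 member probe sets rose and 1 fell, where 2.63% of all probe sets rose and 2.68% fell (5.31% in either direction). The median log2 fold change was 0.38 over the 13 member probe sets, of which 4 are of Srxn1, and 0.00 over all probe sets. After 30%DR, 1 rose and 0 fell (0.470% and 0.450% of all probe sets, 0.919% together), with a member median of -0.17. On the protein-free diet, 1 rose and 0 fell (0.450% and 0.288%, together 0.738%), with a median of 0.14. In CHO-free mice, 1 rose and 1 fell (1.35% and 2.25%, together 3.60%), with a median of 0.19. On the fat-free diet no probe set of the array was a DEPS in limma (0%), and the member median was 0.02. There 2089 of the 45141 probe sets had an unadjusted p under 0.05, fewer than the 5% that chance alone gives. The single member that rose on 30%DR, protein-free and CHO-free diets was Nqo1 each time, whereas after fasting 1 of the 2 Nfe2l2 probe sets, Aox1 and 1 of the 4 Srxn1 probe sets rose as well.

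**Figure D1:**
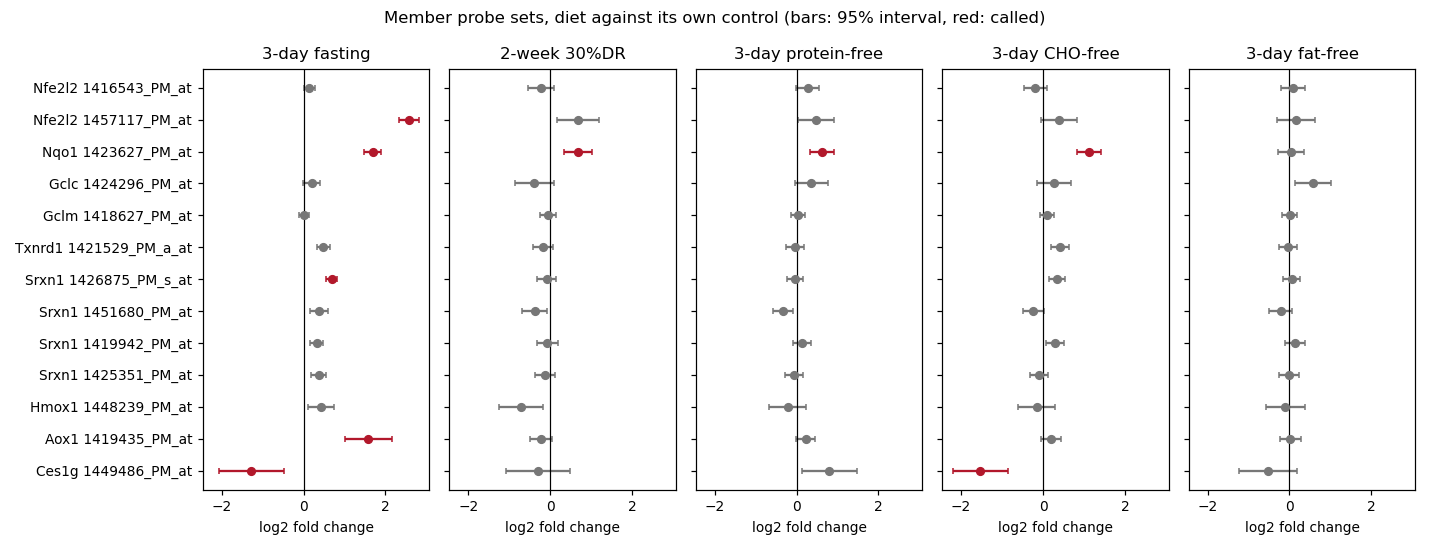
Log2 fold change of each of the 13 member probe sets (rows) against the diet's own control, 1 panel per diet, with bars for the 95% interval and red for a DEPS. Nqo1 was red in the first 4 panels, Ces1g was red below 0 after fasting and on the CHO-free diet, and the fat-free panel holds no red point.

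Nfe2l2 itself gave different answers with its pair of probe sets. The brighter, 1416543_PM_at, read 9.59, 9.50, 9.52, 9.52 and 9.52 in the SDS mice of the fasting cohort and 9.62, 9.54, 9.77 and 9.73 in the fasted mice. The groups overlapped, and the log2 fold change was 0.14 (SE 0.06, 95% interval 0.00 to 0.27, limma adjusted p = 0.154). The dimmer, 1457117_PM_at, read 5.68, 5.78, 5.91, 6.20 and 5.96 in the SDS mice and 8.61, 8.64, 8.25 and 8.41 in the fasted mice. Every fasted mouse lay far above every control, and this probe set rose 5.95-fold (log2 fold change 2.57, SE 0.11, limma adjusted p = 2.00e-07). In the array annotation both carry the symbol Nfe2l2 alone. Which transcript each of them reads was not tested, so the mRNA level of NRF2 after fasting is given by either probe set only with the other beside it. Across the 9 mice of the fasting cohort the values of the probe sets correlated at r = 0.66, and across the 27 mice of the other cohort at r = 0.26, as a description of arrays that include the diet groups.

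In the other cohort neither probe set of Nfe2l2 was a DEPS on any diet. The brighter one had its highest group mean on the protein-free diet (9.25 ± 0.19, SD, n = 5), followed by the SDS controls (9.16 ± 0.08, n = 3), fat-free (9.07 ± 0.11, n = 4), Control (8.98 ± 0.20, n = 5), 30%DR (8.95 ± 0.22, n = 5) and CHO-free (8.80 ± 0.37, n = 5). Each group overlapped with the next in this order. Between the extremes, protein-free against CHO-free, the log2 fold change was 0.46 (SE 0.14, limma adjusted p = 0.0392), below the fold change minimum. The dimmer one was highest on 30%DR, at 6.75, 5.53, 6.94, 5.88 and 6.19 in the 5 mice against 5.52, 5.53 and 5.68 in their controls. In 4 of the 5 restricted mice the value was above all controls, but the spread was wide, and the log2 fold change of 0.68 (SE 0.25, 95% interval 0.18 to 1.19) had a limma adjusted p of 0.197. It was 0.47 (adjusted p = 0.346) on the protein-free, 0.39 (adjusted p = 0.275) on the CHO-free and 0.15 (adjusted p = 0.998) on the fat-free diet in the same fit.

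Nqo1, the quinone reductase that is the classical reporter of NRF2 activity, rose in every diet comparison but the fat-free one. After 3-day fasting its values were 10.30, 10.75, 10.52 and 10.59, against 8.80, 8.67, 8.97, 8.91 and 8.91 in the SDS controls. The groups were clearly apart, and the rise was 3.22-fold (log2 fold change 1.69, SE 0.09, limma adjusted p = 7.41e-07). Nqo1 in the CHO-free mice read 8.48, 8.44, 8.68, 8.84 and 9.39, against 7.53, 7.89, 7.51, 7.50 and 7.79 on the Control diet. Again no CHO-free mouse reached down to a control, and the rise was 2.18-fold (log2 fold change 1.12, SE 0.15, limma adjusted p = 1.75e-05). Without the highest CHO-free mouse the log2 fold change was 0.97 and Nqo1 was still a DEPS.

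The rises of Nqo1 on 30%DR and on the protein-free diet were smaller and closer to the fold change minimum. The 30%DR mice read 8.89, 8.63, 9.19, 8.71 and 9.02, and their SDS controls 8.39, 8.11 and 8.11. The lowest restricted mouse lay above the highest control, with a 1.61-fold rise (log2 fold change 0.69, SE 0.17, limma adjusted p = 0.0334). Without SDS mouse 2 the adjusted p was 0.193 and without SDS mouse 3 it was 0.165, and without 30%DR mouse 1, 3 or 5 it was 0.055, 0.0877 or 0.0711. The markers of fat cells that were measured, Adipoq and Fabp4, had a mean of 9.15 to 10.15 in the SDS controls and 8.36 to 8.93 in the 30%DR mice. With that mean as a covariate in limma, Nqo1 had a log2 fold change of 0.60 and an adjusted p of 0.170. As the marker mean did not overlap between these groups, marker and diet could hardly be separated by this fit. With the mean of the leukocyte markers as a covariate Nqo1 had 0.68 and an adjusted p of 0.0662. On the protein-free diet the 5 values were 8.29, 8.23, 8.14, 8.65 and 8.0, all above the 5 Control mice. That rise was 1.54-fold (log2 fold change 0.62, SE 0.15, limma adjusted p = 0.0235), and it was no longer a DEPS without Control mouse 1, 3 or 4 or protein-free mouse 1 or 4, where the log2 fold change was 0.52 to 0.61 and the adjusted p 0.0536 to 0.0913.

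Nqo1 in the fat-free mice read 7.78, 7.62, 7.76 and 7.51, within the range of the Control mice, with a log2 fold change of 0.03 and a 95% interval of -0.29 to 0.35. The CHO-free and fat-free diets differed in Nqo1 in a direct contrast (log2 fold change 1.10, SE 0.15, limma adjusted p = 0.000184), where 1.25% of all probe sets were DEPS. The CHO-free mean was 0.50 above the protein-free mean (adjusted p = 0.033), under the fold change minimum and with overlapping mice. No member was a DEPS between the protein-free and fat-free diets (0.241% of all probe sets), nor in the contrasts of the 30%DR effect with the protein-free effect (0.0222%) or with the CHO-free effect (0.620%). The 30%DR effect on Nqo1 differed from the protein-free effect by 0.07 (95% interval -0.39 to 0.53) and from the CHO-free effect by -0.44 (95% interval -0.89 to 0.02). Ordered by group mean within this cohort, Nqo1 was highest on 30%DR (8.89 ± 0.23), then CHO-free (8.77 ± 0.39), protein-free (8.26 ± 0.24), SDS (8.20 ± 0.16), fat-free (7.67 ± 0.12) and Control (7.64 ± 0.18). Neighbours overlapped at each step except between SDS and fat-free. The controls themselves stood apart, since all Control mice lay below all SDS mice, with a log2 fold change of -0.56 (95% interval -0.91 to -0.21) that did not pass the test (adjusted p = 0.379). The mean of the fat cell markers Adipoq and Fabp4 also differed between these controls, at 7.31 to 8.23 in Control and 9.15 to 10.15 in SDS mice. Of these 2 markers 1 was a DEPS, lower in Control mice. No member was a DEPS between the Control diet and SDS chow, where 0.0465% of all probe sets were.

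**Figure D2:**
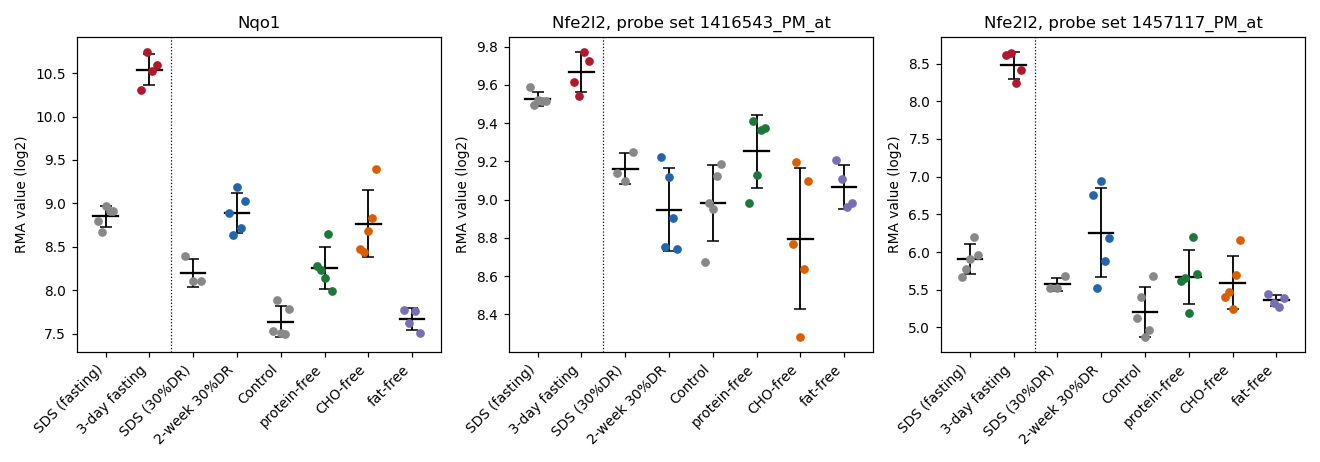
RMA log2 values of Nqo1 and of both Nfe2l2 probe sets in every mouse (points) by group, with the group mean and SD as bars and a dotted line between the cohorts, which were normalized apart. The fasted mice lie between 10.30 and 10.75 for Nqo1 and between 8.25 and 8.64 for probe set 1457117_PM_at, above their controls, whereas probe set 1416543_PM_at shows overlapping groups.

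The glutathione genes were not DEPS on any diet. Gclc and Gclm encode the catalytic and the modifier subunit of glutamate-cysteine ligase, the rate-limiting enzyme of glutathione synthesis. Gclm read 11.71, 11.58, 11.60 and 11.74 in the fasted mice and 11.61, 11.72, 11.68, 11.65 and 11.57 in their controls. The groups were intermingled, with a log2 fold change of 0.01 (95% interval -0.12 to 0.14), and on the other diets Gclm lay between -0.05 and 0.09, with intervals between -0.25 and 0.26. Gclc varied more between mice, with log2 fold changes of 0.20 after fasting, -0.39 on 30%DR, 0.36 on the protein-free and 0.28 on the CHO-free diet. Its largest difference was on the fat-free diet, at 10.15, 11.30, 11.29 and 11.38 against 10.43, 10.27, 10.27, 10.90 and 10.41. There 3 of the 4 fat-free mice lay above all controls and the other lay below them all, with a log2 fold change of 0.57 (SE 0.21, limma adjusted p = 0.998).

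Txnrd1 and Srxn1 serve the thioredoxin and peroxiredoxin system. Txnrd1, the cytosolic thioredoxin reductase, read 9.74, 9.59, 9.46 and 9.77 after fasting and 9.24, 9.08, 9.13, 9.18 and 9.14 in the controls. The groups did not overlap, and the log2 fold change of 0.49 (SE 0.07, limma adjusted p = 0.000674) passed the false discovery rate at 1.40-fold, below the minimum of 1.5. The CHO-free values, 9.49, 9.38, 9.41, 9.46 and 9.87, likewise lay above all Control values, 9.31, 9.04, 9.22, 9.16 and 8.83. There the log2 fold change was 0.41 (an SE of 0.10, adjusted p = 0.0114), again under the fold change minimum. On 30%DR, protein-free and fat-free diets Txnrd1 had -0.17, -0.04 and -0.04, with adjusted p of 0.646, 0.927 and 0.998.

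Srxn1 encodes sulfiredoxin, which restores over-oxidized peroxiredoxins, and has 4 probe sets. The brightest, 1426875_PM_s_at, read 8.13, 8.37, 8.24 and 8.32 after fasting and 7.55, 7.62, 7.62, 7.55 and 7.57 in the controls, and rose 1.61-fold (log2 fold change 0.68, SE 0.06, limma adjusted p = 2.26e-05). Its suffix marks a probe set that can match more than 1 transcript. The other 3 were also above all controls in every fasted mouse, with log2 fold changes of 0.32, 0.37 and 0.38 and adjusted p of 0.00681, 0.00989 and 0.0207, each under the fold change minimum. In CHO-free mice the brightest read 7.81, 7.71, 7.84, 7.81 and 8.19 against 7.66, 7.76, 7.53, 7.50 and 7.25, 0.33 higher on average (SE 0.09, limma adjusted p = 0.0246) with overlap. The other 3 did not go the same way there, at 0.29, -0.10 and -0.24 (adjusted p 0.0884, 0.623 and 0.243). Of these, 1419942_PM_at and 1425351_PM_at were dim, with means above those of only 47.9% and 43.5% of all probe sets in this cohort. In the fasting cohort the shares were 47.4% and 50.8%. Over all 36 arrays, after subtraction of each cohort's mean, 1426875_PM_s_at correlated at r = 0.83 with Txnrd1 and at 0.59 with Nqo1. The other 3 Srxn1 probe sets correlated at 0.41 to 0.60 with Txnrd1 and at -0.06 to 0.46 with Nqo1. Txnrd1 and Nqo1 correlated at 0.49. These values are a description of mice that share diets and hybridisation. The same CHO-free mouse, number 5, held the highest value of its group for Nqo1 (9.39), Txnrd1 (9.87) and Srxn1 (8.19).

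Hmox1, the inducible haem oxygenase that frees iron and biliverdin from haem, was not a DEPS on any diet. Its values after fasting were 5.15, 5.32, 5.31 and 5.47 against 5.26, 4.58, 5.15, 4.88 and 4.55, with a log2 fold change of 0.43 (SE 0.14, limma adjusted p = 0.059). On 30%DR the order was the opposite, with 3.51, 3.84, 3.47, 3.75 and 3.93 in the restricted mice and 4.27, 4.45 and 4.51 in the controls. These groups did not overlap, but the log2 fold change of -0.71 (SE 0.26) had an adjusted p of 0.202. In a fit of these 8 arrays alone Hmox1 passed both thresholds and was lower on 30%DR. The 30%DR mean of 3.70 lay below the median of all probe sets on the 30%DR arrays (3.72 to 3.74), so the size of this difference is uncertain. On the protein-free, CHO-free and fat-free diets Hmox1 had -0.21, -0.15 and -0.10, with adjusted p of 0.768, 0.74 and 0.998.

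Aox1, an aldehyde oxidase that also oxidizes many drugs, rose after fasting. The fasted mice read 6.25, 5.46, 5.76 and 4.53 and their controls 3.81, 3.90, 4.06, 3.89 and 3.93. All fasted mice were higher but by very different amounts, and the rise was 3.00-fold (log2 fold change 1.58, SE 0.26, limma adjusted p = 0.00122). The mean of the adipocyte markers Adipoq and Fabp4 was 10.63, 9.65, 10.35 and 7.25 in the fasted mice, in the same rank order as Aox1, and 7.96 to 8.93 in their controls. With that mean as a covariate Aox1 was still a DEPS. In the other cohort Aox1 lay between 2.72 and 3.91 in every mouse and was not a DEPS, with -0.23 on 30%DR, 0.22 on the protein-free, 0.19 on the CHO-free and 0.02 on the fat-free diet. Its mean there was above those of only 39.5% of all probe sets. In the fasting controls its mean of 3.92 lay below the median of all probe sets on their arrays (4.15 to 4.19). For Aox1, Control mice were below SDS mice by a log2 fold change of -0.64, without overlap and with an adjusted p of 0.0659, and without Control mouse 1 this difference was a DEPS. The mean of Adipoq and Fabp4 was likewise lower in the Control mice (7.31 to 8.23) than in the SDS mice (9.15 to 10.15), without overlap.

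Ces1g, a carboxylesterase that hydrolyses lipid and drug esters, was the member that fell. Its values in CHO-free mice were 3.08, 3.20, 3.45, 4.15 and 3.72, all below the Control values of 4.31, 6.12, 4.55, 5.14 and 5.12. It fell 2.89-fold (log2 fold change -1.53 with an SE of 0.33, limma adjusted p = 0.00367). The CHO-free mean of 3.52 lay below the median of all probe sets on these arrays (3.70 to 3.76), so the size of the fall is uncertain. After fasting the values were 4.36, 4.80, 3.62 and 3.54 against 4.46, 5.68, 5.22, 5.00 and 6.42. The groups overlapped, and the fall was 2.42-fold (log2 fold change -1.27, SE 0.36, adjusted p = 0.0293). Without SDS mouse 2 or 3 or fasted mouse 3 or 4 it was no longer a DEPS, with an adjusted p of 0.0703, 0.0533, 0.0859 or 0.0886, and with limma's trended and robust prior the adjusted p was 0.0686. Without these mice the log2 fold change was -1.19, -1.31, -1.12 or -1.09. The fasted mean of 4.08 also lay below the median of all probe sets on the fasted arrays (4.18 to 4.21). The size of the fall after fasting is therefore uncertain too.

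Ces1g on the protein-free diet read 6.11, 6.70, 5.88, 4.71 and 5.88, the highest group mean of its cohort (5.85 ± 0.72, SD, n = 5), and the values overlapped those of the Control mice. Against the Control diet this was a log2 fold change of 0.80 (SE 0.33, limma adjusted p = 0.267). Against the CHO-free diet it was 2.34, a 5.05-fold difference without overlap (SE 0.33, adjusted p = 4.04e-05), where 2.44% of all probe sets were DEPS. These diets exchange protein and carbohydrate in opposite ways and at both thresholds Ces1g was the only member DEPS between them. On 30%DR it had -0.29 (95% interval -1.07 to 0.49), and on the fat-free diet -0.52 (95% interval -1.24 to 0.19).

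**Figure D3:**
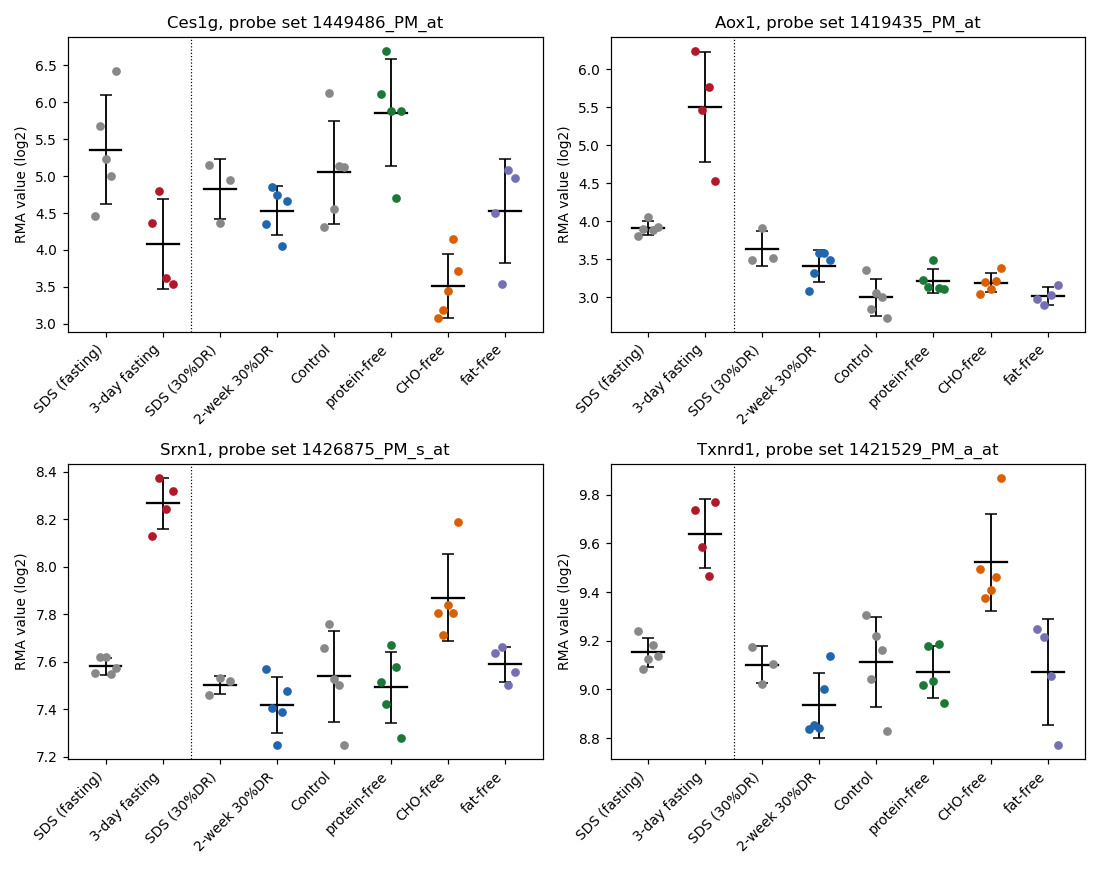
RMA log2 values of Ces1g, Aox1, Srxn1 (its brightest probe set) and Txnrd1 in every mouse by group, with mean and SD as bars and a dotted line between the cohorts. Ces1g was lowest on the CHO-free diet (3.08 to 4.15), Aox1 in the fasted mice (4.53 to 6.25) lay above their controls, and 1 CHO-free mouse was the highest of its group in both lower panels.

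Other targets of NRF2 were followed in lists written from textbook knowledge, with 1 probe set per gene and with earlier results of these data known. The detoxification list held 16 measured genes of 17, and 10 rose and 0 fell after fasting, where 2.63% of all probe sets rose, with a median log2 fold change of 0.65. With the leukocyte marker mean described further on as a covariate 3 of the 16 were DEPS, and with limma's test against a 1.5-fold change (treat) 4 were. Cbr3 and Cbr1, carbonyl reductases, rose 11.8-fold (log2 fold change 3.57, SE 0.12, limma adjusted p = 4.18e-08) and 5.95-fold (2.57, SE 0.10, adjusted p = 8.78e-08). Abcc4, a transporter that exports conjugates and organic anions, rose 3.40-fold, and Gsta2, a glutathione transferase, rose 2.95-fold. Gsta4, Abcc3, Gstm1, Ephx1, Gstp1 and Abcc2 rose between 1.51-fold and 1.82-fold. The other 6 genes did not pass both thresholds.

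Of the same list, 6 genes rose and 0 fell on the CHO-free diet, where 1.35% of all probe sets rose, with a median of 0.43. With the leukocyte covariate 3 were DEPS and with treat 1 was. Gsta2 led, from 10.47 ± 0.26 to 11.99 ± 0.21 (SD, n = 5 each), a 2.86-fold rise (adjusted p = 8.91e-09 by limma). The transporters Abcc1, Abcc4 and Abcc2 rose by a log2 fold change of 0.75, 0.99 and 0.86, and Gstm1 and Ephx1 by 0.85 and 0.67. Cbr1 and Cbr3, which led after fasting, were not DEPS on the CHO-free diet. On 30%DR, Gsta2 rose by 0.86 and Abcc4 by 0.80, with a list median of 0.11. On the protein-free diet Abcc4 rose by 0.72 and Cbr1 by 0.59, with a list median of 0.18. Abcc4 thus rose on the same 4 diets as Nqo1, and on the fat-free diet 0 of the 16 were DEPS and the median was 0.04. From these same arrays the paper already lists both Abcc4 and Nqo1 among the probe sets shared by several of its diets.

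**Figure D4:**
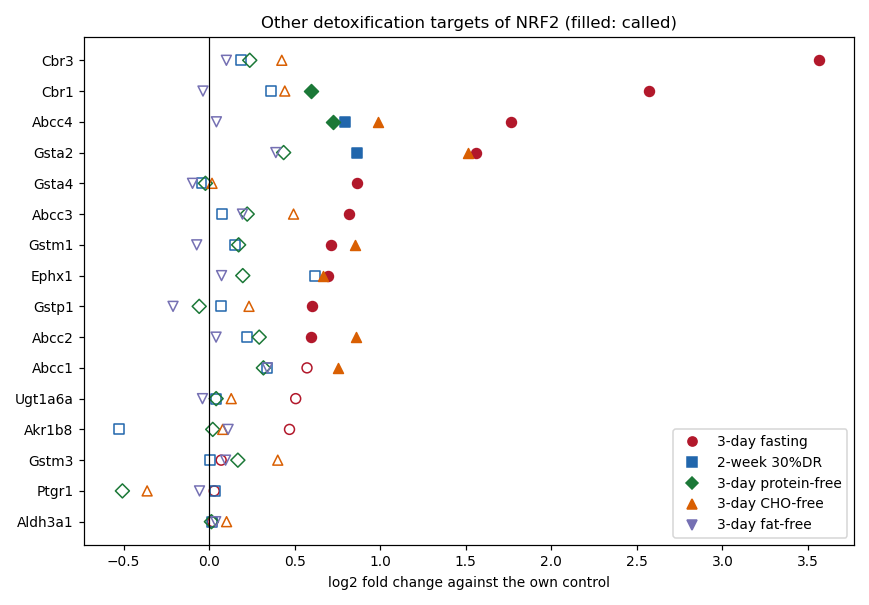
Log2 fold change against the own control (horizontal axis) of the 16 measured detoxification genes (rows), with 1 symbol per diet, filled where the gene was a DEPS. Fasting has 10 filled symbols and the CHO-free diet 6, and Abcc4 is filled on every diet but the fat-free one.

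The remaining branches of the pathway held few DEPS. Of 9 measured genes of glutathione and thioredoxin metabolism, 0 were DEPS after fasting or on the 30%DR, protein-free and fat-free diets, and on the CHO-free diet Osgin1, an oxidative stress response gene, rose by 0.71 (adjusted p = 0.0479, overlapping groups). Of 5 measured genes that supply NADPH, 0 were DEPS after fasting or on the 30%DR, protein-free and fat-free diets, whereas Tkt, a transketolase, and Pgd, the 6-phosphogluconate dehydrogenase, rose on the CHO-free diet by 0.95 (adjusted p = 1.82e-05) and 0.78 (adjusted p = 0.0128). Of 6 genes of iron and haem, Blvrb, a biliverdin and flavin reductase, rose after fasting by 1.25 (adjusted p = 6.26e-06) and none was a DEPS on the other diets. Among 11 measured partners and regulators of NRF2, the small MAF gene Maff rose after fasting by 0.83 (adjusted p = 0.000178), and none was a DEPS on the other diets. These counts come from the same limma fits.

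Markers of other cells and of RNA quality differed between some groups, and their part in the results above was not tested except where a value is given. In bulk kidney RNA, fewer cells of a type and less RNA per cell cannot be told apart. The mean of 6 proximal tubule markers was 10.92 to 11.08 in the fasted mice and 11.13 to 11.40 in their controls, without overlap, and 2 of the 6 fell, Slc5a2 and Miox. The mean of 4 thick ascending limb markers was 10.90 to 10.97 against 11.06 to 11.18, also without overlap, and 0 of the 4 fell. The mean of 4 distal convoluted tubule markers was 9.0 to 9.09 against 9.31 to 9.59 after fasting, where Calb1 and Pvalb fell, and 8.70 to 9.28 against 9.40 to 9.45 on 30%DR, where Pvalb fell. In CHO-free mice 1 of the 4 thick ascending limb markers (Cldn16) and 1 of the 4 distal convoluted tubule markers (Pvalb) fell. Other markers went up: 1 of 5 collecting duct markers rose in CHO-free mice, with a mean of 8.63 to 8.74 against 8.21 to 8.58, without overlap. After fasting 1 of 3 podocyte markers rose, with a mean of 5.80 to 6.20 against 5.56 to 5.86. Of 8 leukocyte markers, 5 fell after fasting, with a mean of 5.68 to 5.98 against 6.31 to 6.72. In CHO-free mice 3 of the 8 fell, with a mean of 5.36 to 5.69 against 5.75 to 6.46. With this mean as a covariate, Nqo1 and Nfe2l2 1457117_PM_at were still DEPS after fasting, but Aox1 (log2 fold change 1.28, adjusted p = 0.396), Srxn1 (0.57, adjusted p = 0.0904) and Ces1g (-1.22, adjusted p = 0.623) were not. Among the CHO-free calls Nqo1 was still a DEPS with it, and Ces1g was not (log2 fold change -1.33, adjusted p = 0.231). Of 3 measured markers of red blood cell precursors, 2 fell after fasting and 2 on the protein-free diet (Hba-a1 and Alas2 both times). As the leukocyte marker mean did not overlap between the fasted or CHO-free mice and their controls, marker and diet could hardly be separated by this fit. The Gapdh control probe sets at the 3′ end exceeded those at the 5′ end, a measure of RNA integrity, by 0.98 to 2.45 on CHO-free, 0.74 to 2.19 on protein-free and 0.65 to 0.96 on Control arrays. With this difference as a covariate Nqo1 had 1.04 on the CHO-free diet and was still a DEPS, and 0.58 on the protein-free diet with an adjusted p of 0.069.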

How the data were processed

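Per the labels, kidney RNA of each mouse was hybridised to 1 Affymetrix HT MG-430 PM array. The deposited log2 values were made by the authors with RMA (background correction, quantile normalization, median polish), with a version not given in the sources used here, on the fasting cohort and the other arrays apart. Control mice of SDS chow were assigned to their cohort by the animal numbers in the labels. Arrays that the authors had removed as outliers and the 3-day 30%DR group were not analysed here.

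Values were used as deposited. Groups were compared with limma 3.58.1 (lmFit, eBayes with default settings) in R 4.3.3, once for the 9 and once for the 27 arrays, which share an estimate of the spread, with Benjamini-Hochberg adjustment over all 45141 probe sets. A DEPS passed a false discovery rate under 5% and a fold change of at least 1.5, as in the study. Each array is 1 mouse, so the p-values judge a difference between groups against the spread between mice as estimated by limma. The number of arrays limits the precision. The fits were tested on simulated data. Symbols came from the platform annotation, which gives 28898 probe sets 1 symbol, 551 several and 15692 none.

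The rule for named genes took every member, both Nfe2l2 probe sets, the brightest probe set of other genes, up to 4 called genes per list and comparison in order of p (other called genes of the detoxification list were added after their values were seen), the 5 genes most like Nfe2l2 and Nqo1 over the arrays and the neighbours of Nfe2l2. Members, lists and tests were chosen with earlier results of these data known. Alternatives were quantile normalization, array medians set to 0, a prior with trend and robust fitting, array weights, only probe sets above the median, limma's treat, calls without a fold change minimum, covariates (Gapdh difference, adipocyte and leukocyte markers), the groups alone, and leaving out arrays. Promoter windows are from RefSeq (GRCm38.p6), and protein sequences were not used here. Python 3.11.15, pandas 2.3.3 and matplotlib 3.10.9 served for sequences and figures.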

Additional observations from a re-analysis of the deposited data

Results flagged for a closer look

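In 6 of 91 groups of 4 or 5 mice, 1 mouse lay apart from the others, measured as its gap to the nearest mouse over the range of the group, where chance gives about 1 group in 20. They were SDS mouse 1 of the fasting cohort for Nfe2l2 1416543_PM_at (highest, 0.717), 30%DR mouse 2 for Srxn1 1419942_PM_at (highest, 0.712), Control mouse 4 for Gclc (highest, 0.742), fat-free mouse 1 for Gclc (lowest, 0.925), and CHO-free mouse 5 for both Txnrd1 (highest, 0.761) and Srxn1 1426875_PM_s_at (highest, 0.733).

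Differences between diets on the same controls passed the test for 2 members. Ces1g differed by 2.335 on the log2 scale on the protein-free against the CHO-free diet, and Nqo1 by 1.097 between the CHO-free and the fat-free diet.

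Some members lay above the mean of their controls in every fasted mouse and below it in every mouse of another diet. This difference was not tested, since the cohorts were normalized apart. Between fasting and 30%DR, the log2 fold changes differed by 1.813 for Aox1 (1.585 and -0.2279), by 0.5861 for Gclc (0.197 and -0.3891), by 1.138 for Hmox1 (0.4299 and -0.7078) and by 0.7631 for Srxn1 1451680_PM_at (0.3836 and -0.3795). The latter also differed by 0.7144 between fasting and the protein-free diet (-0.3308) and by 0.6228 between fasting and the CHO-free diet (-0.2392).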

How the results depend on the processing

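Of 222 recomputed fold changes of called members, none changed direction, 191 stayed on their side of the thresholds and 31 did not. The number of members called, of 13, was 5 after fasting and became 9 without a fold change minimum and 2 with treat or with the leukocyte markers as a covariate (4 to 5 with 1 mouse left out). It was 1 on 30%DR, 0 with treat, the adipocyte or the leukocyte covariate, and 2 when these groups were fitted alone, where Hmox1 joined Nqo1 (0 to 1 with 1 mouse left out). On the protein-free diet it was 1, and 0 with treat, array weights or the Gapdh covariate (0 to 1 with 1 mouse left out). On the CHO-free diet it was 2, with 4 without a fold change minimum, 0 with treat and 1 with the leukocyte covariate (2 to 2 with 1 mouse left out). For Control against SDS it was 0, and 1 with array weights, where Aox1 was lower (0 to 1 with 1 mouse left out). Protein-free against CHO-free gave 1, and 5 without a fold change minimum (1 to 2 with 1 mouse left out, with Nqo1 as the other member without protein-free mouse 4 or CHO-free mouse 2). Protein-free against fat-free gave 0 (0 to 1 with 1 mouse left out, Ces1g without protein-free mouse 4), and CHO-free against fat-free gave 1, with 2 without a fold change minimum and 0 with treat. Treat asks for a fold change above 1.5 rather than above 1. For Nqo1 and Nfe2l2 1457117_PM_at after fasting, the log2 fold change was 1.62 to 1.77 and 2.52 to 2.74 over all alternatives, and both were DEPS in each of them. The cause of the other shifts was not tested. The detoxification list had 10 called genes after fasting and 6 on the CHO-free diet, against 3 and 3 with the leukocyte covariate and 4 and 1 with treat. No paired analysis was possible because the labels give each mouse its own number and no number is shared between groups.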

Other observations

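The genes whose values were most like those of Nqo1 over the 36 arrays, after each cohort's mean was subtracted, were Abcc4 (r = 0.94), Ugdh (0.90), Aldh1a7 (0.88), Ovgp1 (0.87) and Chkb (0.87). Ugdh makes the UDP-glucuronic acid used for glucuronidation, and Aldh1a7 is an aldehyde dehydrogenase. For Abcc4 the correlation was 0.98 over the 9 arrays of the fasting cohort and 0.91 over the other 27. The genes most like Nfe2l2 1457117_PM_at were Mdrl (0.93), Cyp2d22 (0.92), Bbox1 (0.90), Aldh1a1 (0.89) and Tent2 (0.89), and those most like Nfe2l2 1416543_PM_at were Gid4 (0.88), Tm9sf2 (0.86), Aff4 (0.85), Rnf130 (0.84) and Usp1 (0.84). Aldh1a1 correlated with the former at 0.99 in the fasting cohort and 0.60 in the other, and Gid4 and Usp1 with the latter at 0.32 and 0.07 in the fasting cohort and 0.90 and 0.86 in the other. The lists for the pair of Nfe2l2 probe sets share no gene. Over all 36 arrays after the same subtraction, and not split by cohort, Nqo1 correlated at 0.86 with Nfe2l2 1457117_PM_at and at -0.01 with Nfe2l2 1416543_PM_at. The arrays share diets and hybridisation, so these values are a description.

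The nearest annotated protein-coding genes beside Nfe2l2 are Hnrnpa3 and Agps. None of the 4 Hnrnpa3 probe sets was a DEPS after fasting, with log2 fold changes between -0.28 and 0.42. Both probe sets of Agps, an enzyme of ether lipid synthesis in peroxisomes, fell after fasting, by 0.95 and 0.94 on the log2 scale. On the CHO-free diet, where no Nfe2l2 probe set was a DEPS, 1 of these Agps probe sets fell by 1.05 (limma adjusted p = 3.42e-05) and the other had -0.55, under the fold minimum.

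Among 10 measured paralogs of the members, Ces1e, another carboxylesterase, fell after fasting by 0.77 on the log2 scale (limma adjusted p = 0.00271). Txnrd3, a thioredoxin reductase, rose by 0.81 on the CHO-free diet (adjusted p = 0.00154) with overlapping groups. Aox3, an aldehyde oxidase, rose by 0.61 on 30%DR (adjusted p = 0.0314), also with overlapping groups.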
